A study of Mus musculus with 18 samples.

Results

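The extracellular matrix of the embryo was read here through 64 genes, which collagens, laminins, nidogens, fibulins, fibrillins, proteoglycans, matrix metalloproteinases and their inhibitors make up. The genes were chosen by symbol alone, from families of collagens, laminins, fibrillins, fibulins, metalloproteinases, their tissue inhibitors and thrombospondins and from a short list of single genes. That rule uses no measured value, although the families themselves were picked with earlier results of these data known. They had 83 probe sets (groups of oligonucleotide probes read as 1 value) among 13057 on the arrays, and they are 64 of the 6137 genes that could be named. Of these, 53 probe sets for 40 genes were bright enough to be tested, and 24 genes had no tested probe set. The basement membrane gave 18 genes (13 tested), the interstitial matrix 33 (20 tested), proteases and inhibitors 12 (6 tested) and the glypicans 1, Gpc1, which was tested with 2 probe sets. Fbn1 and Gpc3 were not analysed here.

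The study compared embryos that carry mutations of Nkx2-5 (Csx), a homeobox gene that the forming heart needs. The labelled tissue is the middle one of 3 parts of the embryo, at embryonic day 9.5. The groups were wild type (replicates 1, 5 and 7), heterozygous (3, 4 and 8) and homozygous mutant (2, 6 and a last one numbered 8 on 1 array type and 9 on the other, written 8a/9b). The labels do not say whether arrays 8a and 9b hold the same RNA, and they are treated here as the same replicate. Each group had 3 arrays on each of 2 array types, called type a and type b, which carry different probe sets. Strain, sex, the construction of the mutant allele and whether embryos were pooled are not given in the labels, and Nkx2-5 itself was not analysed here, so genotypes are those of the labels. Markers of several tissues were detected: 6 of 10 listed genes of heart muscle, 4 of 5 of blood, 7 of 9 of endothelium, 8 of 10 of mesenchyme and 5 of 7 of neural tube were bright enough to be tested. In such bulk tissue fewer cells of a type and less RNA per cell cannot be told apart.

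Basement membranes are thin sheets under epithelia and around vessels and muscle. Their laminin network attaches to cells, a network of type IV collagen gives them strength, and nidogens and perlecan join both networks. The interstitial matrix between cells is built from fibrillar collagens, microfibrils, fibronectin and proteoglycans. In the early heart a matrix rich in versican, the cardiac jelly, separates muscle from endocardium and is the site where valve cushions form.

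Some arrays stood apart in ways that cross or touch the genotypes. Homozygous mutant 8a/9b had a 3' to 5' actin ratio, a sign of shortened RNA, of 2.50 on type a and 2.28 on type b, against at most 1.41 and 1.40 on the other arrays. Its BioB control probe sets were also the brightest, with means of 3950 and 4531 against at most 1539 and 2320 on the other arrays. The cause of either was not tested. Arrays of wild type 5 and heterozygous 3 and 4 resembled each other, as did wild type 7 and heterozygous 8. The Spearman correlations of their deviations across probe sets, which are not independent, were 0.47 to 0.54 and 0.47 on type a, and 0.26 to 0.46 and 0.53 on type b. No homozygous mutant array belonged to these sets, so a fit with the sets as a block compares the mutants with wild type 1 alone. Afp, the alpha-fetoprotein of yolk sac endoderm and early liver, was far brighter in wild type 1, heterozygous 4 and homozygous mutant 2 than in the other replicates. The larger differences are given also without mutant 8a/9b or with the resembling arrays as a block where that moved them most.

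In homozygous mutants no matrix probe set passed the test against wild type (0 of 53 at a limma adjusted p under 0.05, against 0.692% of all 6935 tested probe sets). At an unadjusted p under 0.05, 5 matrix probe sets (9.43%) were higher and 1 (1.89%) was lower. Over all tested probe sets 397 (5.72%) were higher and 380 (5.48%) lower. All 3 mutant arrays read above all 3 wild type arrays for 5 of the 53, against 7.24% of all tested probe sets. These were Col4a1, Lamb1, Nid1, Nid2 and Vcan, and 4 of the 5 belong to the basement membrane. All mutant arrays read below wild type for 1 of 53, a probe set of Gpc1, against 8.19% of all. The matrix shares, 9.43% and 1.89%, are given beside that background and were not tested against it.

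Over genes, each taken at its brightest tested probe set, the basement membrane had a median log2 fold change of 0.26 between homozygous mutant and wild type. Of its 13 tested genes 12 had a positive value, but Lama1, Hspg2 and Col4a4 had only 0.005, 0.014 and 0.014. In mutants 2, 6 and 8a/9b, 8, 10 and 11 of the 13 exceeded the wild type mean. The interstitial matrix had a median of 0.19, with 14 of 20 positive, and all 3909 tested genes had a median of -0.03, with 1779 positive. Each deviation of an array from the wild type mean was also summarised by class. The basement membrane median was 0.33, 0.32 and 0.37 in homozygous mutants 2, 6 and 8a/9b. It was -0.00, -0.10 and 0.01 in wild type 1, 5 and 7, and -0.07, -0.00 and 0.25 in heterozygous 3, 4 and 8. By this class median the mutants thus lay above all other replicates, with heterozygous 8 next to them. Wild type deviations are taken from the mean of the same arrays, so they are centred for each gene by construction. Gene by gene against heterozygotes, the basement membrane median was only 0.07, with 8 of 13 positive. The interstitial medians were 0.30, 0.06 and 0.29 in the mutants, 0.16, -0.12 and -0.13 in wild type and -0.07, 0.18 and -0.24 in heterozygotes, so the groups overlapped.

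**Figure D1:**
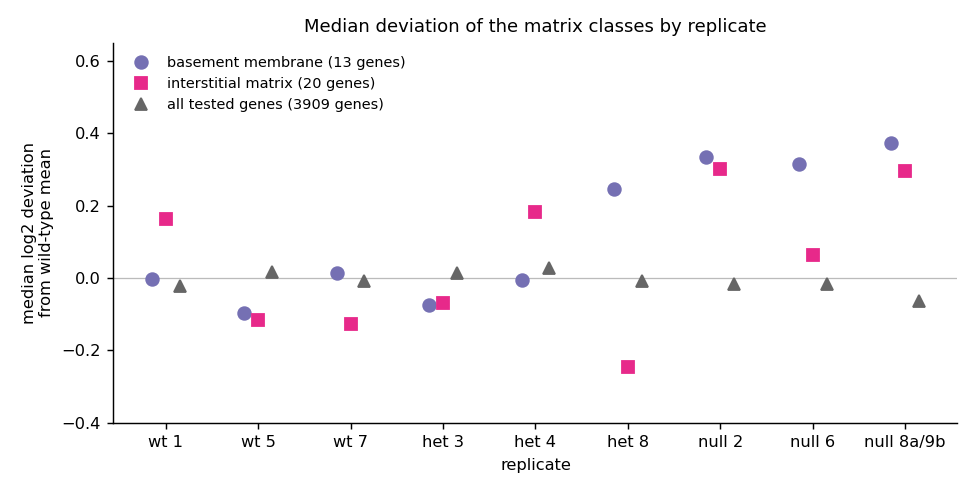
The vertical axis is the median over genes of the log2 intensity minus the wild type mean, and the horizontal axis lists the 9 replicates. Circles are the 13 tested basement membrane genes, squares the 20 tested interstitial genes and triangles all 3909 tested genes. The basement membrane lies at 0.32 to 0.37 in the mutants and at most at 0.25 elsewhere, while the interstitial matrix ranges over all genotypes. Wild type deviations are centred for each gene by construction.

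Without homozygous mutant 8a/9b the basement membrane median between mutant and wild type was 0.10. With the resembling arrays as a block it was 0.17 and the interstitial median was -0.02. Markers of parietal endoderm, a yolk sac layer that makes much basement membrane, were also measured, and 5 of 6 listed genes were tested. Their summed intensity was 6640 to 8691 in the mutants against 5780.0 to 6549 in wild type. Heterozygotes had 5610 to 6657, so they overlapped the mutants. Of the 5 genes, only Pdgfra, which is also on the mesenchyme list, did not overlap between mutant and wild type. Snai1 was under the floor of detection on 2 of 3 arrays of wild type and of mutant. For endothelium, whose vessels rest on basement membrane, 7 of 9 markers were tested, with a summed intensity of 12294 to 20885 in mutants and 11056 to 13266 in wild type. Pecam1 and Flt1 of that list were not tested. The endothelial sums of mutants and wild type overlapped, and mutant 8a/9b had the highest. Other lists were lower in the mutants or overlapped as well. The 5 tested neural tube markers of 7 listed summed to 5317 to 9112 in mutants and 11753 to 17580 in wild type. Pax1, the only tested sclerotome marker, read 106.5 to 360.0 in mutants against 563 to 794 in wild type. All its mutant values lay under the floor of detection. Mesenchyme markers, 8 of 10 tested, summed to 21088 to 38034 in mutants and 25857 to 30981 in wild type. The part of any of these cell types in the matrix values was not tested.

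Among the laminins, Lamb1, the beta chain of the most widespread embryonic laminins, had the smallest p of all matrix genes between mutant and wild type. Its intensity was 369.6, 203 and 482 in wild type 1, 5 and 7, 292, 370.5 and 569 in heterozygous 3, 4 and 8, and 698, 659.6 and 943 in homozygous mutants 2, 6 and 8a/9b. All mutant arrays lay above all others, while 2 of 3 wild type arrays lay under the floor of detection of 375.1 on type a (2 times the noise SD), to which lower values were set. The fold change was 1.86 (log2 0.89, SE 0.236, limma adjusted p = 0.135), and a fold next to the floor understates a change. Against heterozygotes the log2 difference was 0.81 (limma adjusted p = 0.126). Lamc1, the gamma chain that pairs with it, read 1847, 1466 and 1421 in wild type, 1452, 1525 and 2084 in heterozygotes and 2584, 2424 and 1205 in mutants. Mutants 2 and 6 were the highest and mutant 8a/9b the lowest array of all, so the groups overlapped (log2 0.32, SE 0.299). Without mutant 8a/9b the Lamc1 difference was 0.68 and with the resembling arrays as a block 0.087.

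The alpha chains, which carry most of the sites for cell receptors, did not separate the genotypes in this way. Lama1, the alpha chain of laminin in the earliest basement membranes, had means of 629.6 ± 81.9 (SD, n = 3) in wild type, 789.6 ± 86.9 in heterozygotes and 632 ± 83.5 in mutants. Its lowest heterozygous array, 704, lay under the highest of wild type, 714. Lama2, of muscle and peripheral nerve, read 345, 440.2 and 453 in wild type, 621, 500.5 and 565 in heterozygotes and 429.6, 472 and 628 in mutants. Heterozygotes did not overlap wild type there (log2 0.41, SE 0.202, limma adjusted p = 1), and the mutants overlapped both. Lama3, of epithelial laminins, read 257 in wild type 1 and 296 in mutant 2 and at least 960.2 on the other arrays, both low ones being replicates with high Afp. The heterozygous replicate with high Afp read 1246.

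For both nidogens the mutant arrays lay above all others, though neither difference from wild type passed the test. Nid2 read 1271, 754 and 994 in wild type, 626, 679.6 and 812 in heterozygotes and 1920.3, 1534 and 1537 in mutants. The mutants lay above all others, and the heterozygotes at the lower end. The log2 difference of mutants from wild type was 0.75 (SE 0.275, limma adjusted p = 0.326). From heterozygotes it was 1.24 (limma adjusted p = 0.0563), just over the threshold, and under 4 of the alternative settings it was under it, at 0.0387 to 0.0461. With the resembling arrays as a block the Nid2 differences were 0.38 from wild type and 0.63 from heterozygotes. Nid1 read 1402, 1259.6 and 1447 in wild type, 1299, 1180.3 and 1369 in heterozygotes and 2386, 1702 and 1536 in mutants. Again no mutant array overlapped another group (log2 0.43, SE 0.262, limma adjusted p = 0.585), and without mutant 2 the log2 difference was 0.24. Perlecan, Hspg2, which binds growth factors through its heparan sulfate, had means of 2736 ± 701, 2746 ± 406 and 2754 ± 661 (SD, n = 3) in wild type, heterozygotes and mutants at its brightest probe set, so the means lay within the spread of any group. Its type a probe set gave log2 differences from wild type of 0.31 in mutants and 0.36 in heterozygotes (SE 0.341 for both), and the groups overlapped.

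Type IV collagen is the scaffold itself. Col4a1 read 5726, 3987 and 3992 in wild type, 3798, 4696 and 5948 in heterozygotes and 6372, 5978 and 5841 in mutants. Col4a2, which forms 1 triple helix with it, read 3763, 2609 and 3049.6, then 2808, 3095 and 3681, and 3983, 3682 and 5140.3 in the same order. The highest array of both genes was a mutant. Heterozygous 8 exceeded mutant 8a/9b for Col4a1, and wild type 1 exceeded mutant 6 for Col4a2. Their log2 differences from wild type were 0.43 (SE 0.194, limma adjusted p = 0.443) and 0.44 (SE 0.193, limma adjusted p = 0.421). With the resembling arrays as a block they were 0.08 and 0.17, and without mutant 8a/9b they were 0.46 and 0.30. The 2 genes share a start region: in RefSeq annotation of GRCm38.p6 their first bases lie 21 bases apart on chromosome 8, at 11312826 on the minus strand for Col4a1 and 11312805 on the plus strand for Col4a2.

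The other basement membrane collagens had smaller differences. Col4a4 was under the floor of type b, 523.1, in mutant 6 (72.8) and read 594 and 831 in the other mutants. Its wild type values were 609, 786 and 524 and its heterozygous values 988, 950.4 and 723. Col4a5 exceeded the floor on 1 array of each genotype. Col18a1, whose end fragment is endostatin, had means of 5457 ± 123 in wild type, 5820.1 ± 221 in heterozygotes and 6214 ± 1317 (SD, n = 3) in mutants. The heterozygotes lay above wild type without overlap by a log2 difference of 0.09. Mutant 6, at 4697, was its lowest array. Col15a1, Col4a3, Lama4, Lama5 and Lamb3 were not tested.

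**Figure D2:**
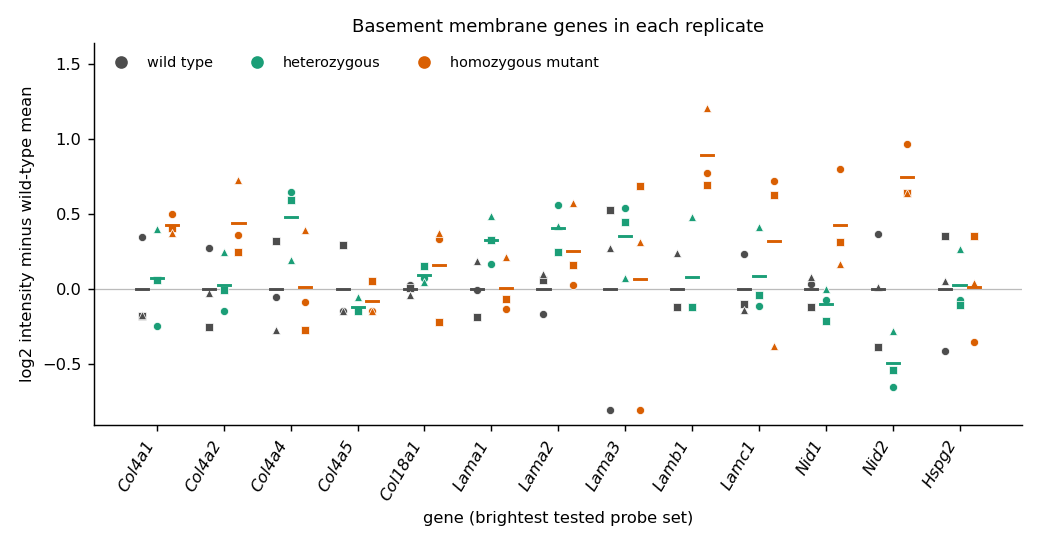
The vertical axis is the log2 intensity of each array minus the wild type mean for the 13 tested basement membrane genes on the horizontal axis, in grey for wild type, green for heterozygous and orange for homozygous mutant. Circle, square and triangle are the replicates in the order of the text (wild type 1, 5, 7; heterozygous 3, 4, 8; homozygous mutant 2, 6, 8a/9b), values under the floor are set to it and bars are group means. The mutant points of Lamb1, Nid1, Nid2 and Col4a1 lie above every wild type point.

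Type I collagen, the main fibre of skin, bone and tendon, is made of Col1a1 and Col1a2 chains. Col1a1 read 4379, 1716 and 2423 in wild type, 2614, 4028 and 1489 in heterozygotes and 5402, 3475 and 3898 in mutants. Col1a2 read 2888, 931 and 888, then 45.3, 1574 and 890.1, and 2562, 1283 and 2135. In both genes wild type 1, heterozygous 4 and mutant 2 were the highest arrays of their genotype, and the groups overlapped between mutant and wild type. The log2 differences between mutant and wild type were 0.67 (SE 0.401, limma adjusted p = 0.581) and 0.52 (SE 0.523, limma adjusted p = 0.797). Leaving out wild type 1 gave 1.04 for Col1a1, leaving out wild type 5 gave 0.36, and the block of resembling arrays gave -0.066 for Col1a1 and -0.59 for Col1a2. These probe sets, and the tested ones of Hspg2, Fn1 and Sparc, carry a suffix of the array maker for gene families. They may take up signal of related genes, which was not tested.

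The replicates with high Afp were the top array of all 3 genotypes at once for 12 of the 53 matrix probe sets, or 22.6%. The same was true of 331 of 6935 tested probe sets, or 4.77%. Afp on type b was 3515, 3309 and 3642 in wild type 1, heterozygous 4 and mutant 2 and at most 706 in the others. The 12 probe sets were all 3 of Col1a1, all 3 tested of Col1a2, and those of Col3a1, Col5a2, Col6a1, Col9a2, Fbln2 and Timp1, and none belonged to the basement membrane. The list of visceral endoderm and liver bud markers, of which 8 of 14 were tested, summed to 9956, 9861 and 9933 in these replicates. In the others it summed to 3326 to 5963. Afp, by which the replicates were picked, is 1 of the 8 and gave 3515, 3309 and 3642 of the high sums. The high sums are therefore not independent of that choice. The part of this list in the collagen values was not tested, and this pattern was chosen for description after the values were seen.

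**Figure D3:**
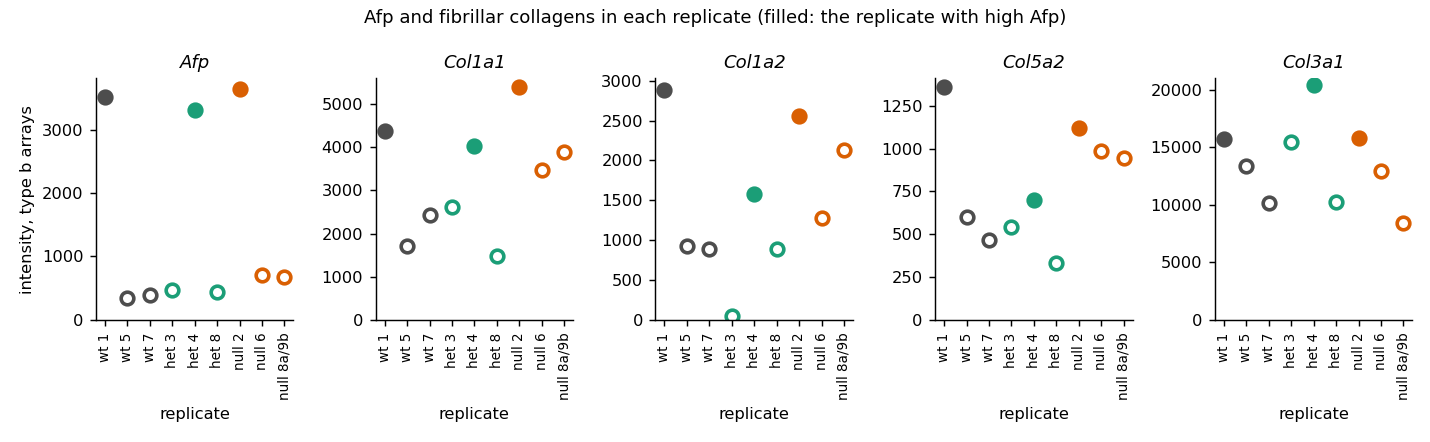
Each panel plots the intensity on type b arrays of 1 gene in the 9 replicates, on a linear axis that starts at 0. Filled points are the replicate of each genotype with high Afp. Afp and the 4 fibrillar collagens are each highest at the filled point of every genotype, and the size of the gap differs between genes.

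The other fibrillar collagens differed in direction and none was called. Col3a1, the partner of type I in soft tissue and vessels, read 15715, 13365 and 10199.5 in wild type, 15493, 20413 and 10281 in heterozygotes and 15806, 12981 and 8439 in mutants. Its highest array was heterozygous and its lowest mutant, with a log2 difference of -0.10 between mutant and wild type. Col5a2, of the collagen that starts fibrils, read 1359, 599.9 and 469 in wild type, 540.3, 699.5 and 329.6 in heterozygotes and 1119, 988 and 948 in mutants. The mutants lay above every heterozygote (log2 0.80, SE 0.326, limma adjusted p = 0.266) and overlapped wild type 1 only. The difference of Col5a2 from wild type was 0.43, and -0.42 with the resembling arrays as a block. Col5a1, the other chain of type V, had means of 2368 ± 326, 2610.4 ± 624 and 2334 ± 441 (SD, n = 3) in wild type, heterozygotes and mutants. Its highest array was heterozygous 3, and both of its dimmer probe sets had a negative difference between mutant and wild type too. Col2a1 and Col11a1, fibrils of cartilage, were not tested, since their highest arrays read 150.5 and 243.

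Beaded type VI collagen surrounds cells in most connective tissue. Col6a2 read 1807, 1413 and 1110.1 in wild type, 1394, 1657 and 1227 in heterozygotes and 1754, 1780.5 and 2115 in mutants. The mutants lay above the heterozygotes and overlapped wild type 1 (log2 0.41 from both groups, limma adjusted p = 0.641 against wild type). With the resembling arrays as a block the Col6a2 difference from wild type was 0.054. Its partner chain Col6a1 had means of 753 ± 263, 539 ± 296 and 943 ± 291 (SD, n = 3). Col26a1 read 2716, 2423 and 3287 in wild type and 1942, 2207 and 2412 in heterozygotes, which lay below without overlap (log2 -0.36, SE 0.219). Its mutant values, 2221, 1827 and 3079.7, spanned both groups. Col9a2 and Col12a1, associated with fibril surfaces, had log2 differences of 0.28 and -0.28 between mutant and wild type with SEs of 0.432 and 0.405. The collagens Col7a1, Col8a1, Col9a1, Col9a3, Col10a1, Col17a1, Col19a1 and Col22a1 were not tested.

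Elastic fibre and microfibril genes stayed within their spread. Fbln1, of early heart valve and vessel matrix, had means of 5171 ± 1331, 4743 ± 1579 and 5731 ± 2133 (SD, n = 3) in wild type, heterozygotes and mutants. Fbln2, of endocardial cushions, had 2141 ± 453, 1776 ± 402 and 2408 ± 482. Fbn2, the fibrillin of embryonic microfibrils, had 1730.4 ± 441, 2014 ± 567 and 1454 ± 328. Their log2 differences between mutant and wild type were 0.11, 0.17 and -0.24, all smaller than their SEs of 0.323, 0.273 and 0.312. Fbln7 had -0.27 (SE 0.347), and elastin, Eln, exceeded the floor on 2 wild type arrays, no heterozygous one and 1 mutant array.

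Of 5 adhesive and matricellular genes, Fn1 and Sparc were tested. Fibronectin, Fn1, which cells bind while they migrate, read 9211, 6716 and 8066 in wild type, 7261, 6680.2 and 8296 in heterozygotes and 9400.3, 7654 and 10735 in mutants. The groups overlapped (log2 0.21, SE 0.189), and its type a probe set gave 0.16 (SE 0.133). Sparc, a collagen-binding protein that parietal endoderm makes in large amounts, had means of 5086 ± 709, 4646 ± 1029.8 and 6256 ± 1854 (SD, n = 3). Mutant 8a/9b read 8292 and mutant 6 read 4666, and without 8a/9b the log2 difference of Sparc from wild type went from 0.27 to 0.044. Thbs1, Thbs2 and Thbs3 were not tested.

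Among proteoglycans Bgn, biglycan, a small collagen-binding protein with sugar chains, read 1355, 1179.9 and 962 in wild type, 1145, 1224 and 1005 in heterozygotes and 1750.5, 1350.3 and 2282 in mutants. All mutants lay above the heterozygotes, and mutant 6 lay just under wild type 1. The fold change from wild type was 1.52 (log2 0.60, SE 0.260, limma adjusted p = 0.416), and the log2 difference was 0.41 without mutant 8a/9b and 0.37 with the resembling arrays as a block. Versican, Vcan, of the cardiac jelly, read 3619, 5651 and 5339 in wild type, 5119.5, 3495 and 6953 in heterozygotes and 5907, 6798 and 5653 in mutants. The lowest mutant array, 5653, lay barely over the highest of wild type, 5651 (log2 0.35, SE 0.244, limma adjusted p = 0.656), and heterozygous 8 was the highest of all. Without wild type 1 the log2 difference was 0.15, and with the resembling arrays as a block it was 0.75. Its other tested probe sets gave -0.18 and 0.20, so the 3 did not share a sign. Decorin, Dcn, had means of 772 ± 51.5, 933 ± 201 and 816 ± 179 (SD, n = 3).

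Gpc1, glypican 1, a heparan sulfate proteoglycan held to the cell surface by a lipid anchor, gave the only call among the matrix genes, and its probe sets disagreed. The type b probe set read 1002, 905 and 880.5 in wild type, 1267, 1521 and 1488 in heterozygotes and 264, 591 and 104 in mutants. The 3 groups did not overlap, and 2 of 3 mutant arrays lay under the floor. It fell in mutants against heterozygotes by 1.38 on the log2 scale (SE 0.216, limma adjusted p = 0.0129). Against wild type the mutant difference was -0.77 (limma adjusted p = 0.167) and that of heterozygotes 0.61 (limma adjusted p = 1). The size of the difference between mutant and wild type was set by the floor. It was -1.43 when the floor was halved, and with the floor doubled all mutant and wild type arrays lay under it. The difference from heterozygotes also depends on the floor, under which 2 of 3 mutant arrays lay. The brighter type a probe set read 4443, 1909 and 3861 in wild type, 2125, 2714 and 3716 in heterozygotes and 2689, 2209 and 2455 in mutants. Its mutants lay within the range of the other groups (log2 -0.18 against heterozygotes, SE 0.302). The call of the type b probe set was lost with the resembling arrays as a block (limma adjusted p = 0.346), with the floor doubled (0.0714) and without heterozygous 3 (0.0588), heterozygous 4 (0.0738) or mutant 2 (0.0641).

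Proteases and their inhibitors set how fast matrix is removed. Mmp14, a membrane-bound collagenase that also activates Mmp2, read 1326, 1269.5 and 912 in wild type, 1068, 1273 and 1063 in heterozygotes and 838, 1001 and 627 in mutants. The mutants lay below every heterozygote and overlapped wild type 7 (log2 -0.52 against wild type, SE 0.271, limma adjusted p = 0.515), and without mutant 8a/9b the difference was -0.33. Mmp2, gelatinase A, had means of 4532 ± 538, 4708 ± 335 and 4705 ± 199 (SD, n = 3) and the smallest difference of the class (log2 0.06, SE 0.141) apart from Mmp11 (0.04, SE 0.346). Mmp13 exceeded the floor on 2 wild type, no heterozygous and 2 mutant arrays. Timp3, an inhibitor bound to the matrix, read 1630.3, 1113 and 1481 in wild type, 1208, 1459 and 1489.9 in heterozygotes and 2218, 1640.1 and 1616 in mutants, which lay above every heterozygote (log2 0.38 against wild type, SE 0.270). With the resembling arrays as a block the Timp3 difference was 0.15. Mmp3, Mmp7, Mmp9, Mmp10, Mmp12 and Timp2 were not tested.

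**Figure D4:**
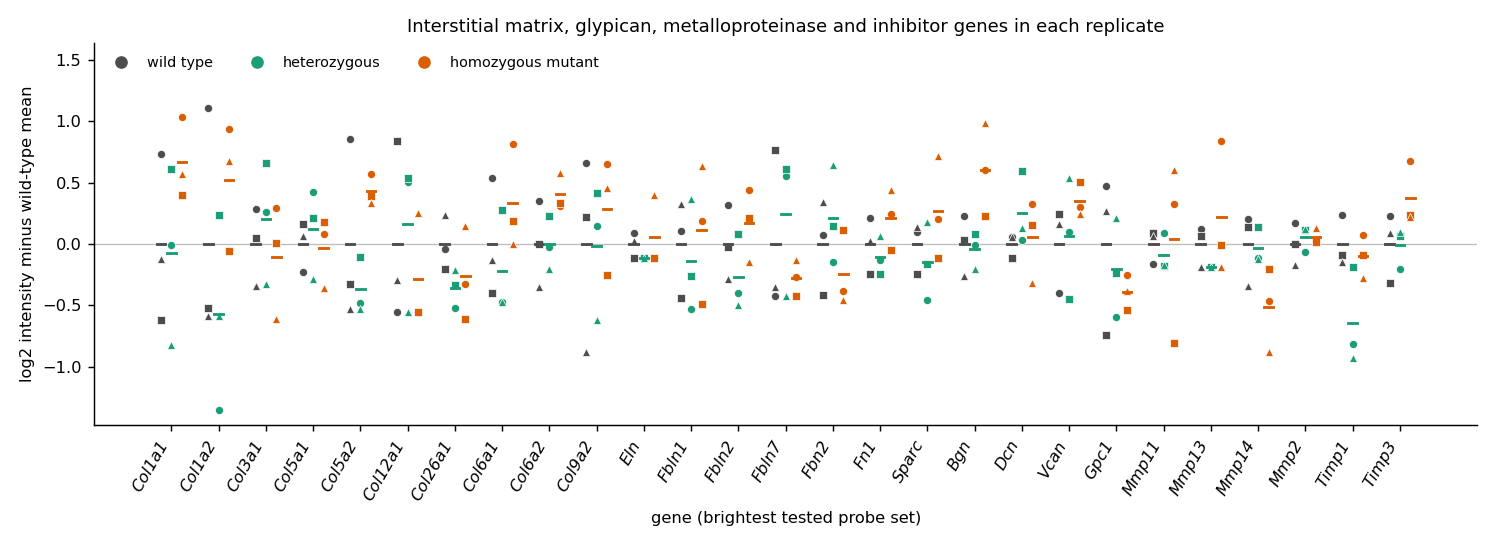
The vertical axis is the log2 intensity of each array minus the wild type mean for the 20 interstitial genes, Gpc1 (type a probe set) and 6 protease and inhibitor genes on the horizontal axis. Symbols, colours and bars have the same meaning as in the plot of basement membrane genes. Wild type 1 lies at 0.74 for Col1a1 and 1.11 for Col1a2, inside or above the range of the mutants.

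Heterozygous embryos had no matrix call against wild type (0 of 53 by limma, against 0% of all tested probe sets). At an unadjusted p under 0.05, 1 matrix probe set (1.89%) was higher and 1 (1.89%) lower. Over all tested probe sets 88 (1.27%) were higher and 30 (0.433%) lower. Groups did not overlap for 3 higher matrix probe sets (5.66%), Col18a1, Lama2 and Gpc1 on type b, against 3.73% of all. The same held for 2 lower ones (3.77%), Col26a1 and Timp1, against 2.64% of all. These shares were not tested against that background. Timp1, the inducible inhibitor, read 1175, 936 and 899 in wild type, 566, 875 and 458 in heterozygotes and 1051, 938 and 820.5 in mutants. Heterozygous 4 lay close to the lowest wild type array and the other 2 far below (log2 -0.64, SE 0.256, limma adjusted p = 1). The basement membrane median was 0.08 with 10 of 13 positive, and the interstitial median -0.06 with 7 of 20 positive. Over all tested genes the median was 0.02, with 53.9% positive. Without heterozygous 8 the basement membrane median was -0.07. Against their own resembling arrays, heterozygous 8 read Col4a1 higher than wild type 7 by 0.58 on the log2 scale, while the mean of heterozygous 3 and 4 differed from wild type 5 by 0.08.

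Homozygous mutants differed from heterozygotes in 1 of 53 matrix probe sets (1.89%), the Gpc1 probe set described above, against 1.15% of all tested probe sets. Mutants lay above every heterozygote for 9 of the 53 (17.0%), against 9.99% of all, and below for 2 (3.77%), against 12.6%. These shares were not tested against that background. The 9 were Col4a2, Lamb1, Nid1, Nid2, a dimmer probe set of Col1a2 (the brightest overlapped), Col5a2, Col6a2, Bgn and Timp3, and the 2 were Gpc1 on type b and Mmp14. The median of the interstitial genes was 0.30 with 14 of 20 positive, and that of the basement membrane 0.07 with 8 of 13 positive. Over all tested genes the median was -0.07, with 43.0% positive. Both comparisons of the mutants use the same mutant arrays.

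Collagen chains need hydroxylation of prolines to form stable helices. Of 26 listed collagen processing genes 14 had a probe set and 10 were tested, of which 8 had a positive difference between mutant and wild type, 2 rose and none fell. Over all 3909 tested genes 45.5% were positive, 21 rose and 7 fell. The 2 processing genes that rose were the alpha subunits of prolyl 4-hydroxylase. P4ha1 read 2103, 1731 and 1838 in wild type, 1817, 1740.3 and 2344 in heterozygotes and 5448, 5803 and 3665 in mutants. It rose by 1.37 on the log2 scale (SE 0.212, limma adjusted p = 0.0123), with the lowest mutant array well over every other. P4ha2 read 947, 869 and 762 in wild type, 689, 801 and 841 in heterozygotes and 2506, 2377 and 2112 in mutants (log2 1.44, SE 0.229, limma adjusted p = 0.0152), again without overlap. Against heterozygotes P4ha1 rose by 1.32 and P4ha2 by 1.59 (limma adjusted p = 0.0134 and 0.00765). The limma adjusted p against wild type was 0.172 for P4ha1 and 0.167 for P4ha2 with the resembling arrays as a block. Across the leave-outs of wild type 5, wild type 7, mutant 2 or mutant 6, each of which also lost the calls, it was 0.0627 to 0.0797. The calls against heterozygotes were lost with the block (0.525 for P4ha1 and 0.393 for P4ha2), without heterozygous 3 (0.0861 and 0.0655) or heterozygous 4 (0.0870 and 0.0552), and for P4ha1 also without mutant 2 (0.0695). P4hb, the subunit they share, had 0.53 (limma adjusted p = 0.357). Serpinh1, the collagen chaperone Hsp47, and Ppib, which folds prolines, had 0.07 and 0.05.

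The upstream sequence of P4ha2 is shown because this subunit rose in the mutants, and that of Nid1 because it is a matrix gene whose mutant arrays did not overlap the others. Both are the 250 bases before the annotated gene start from RefSeq's table for GRCm38.p6, which held windows for 43 of the 64 matrix genes and 26 of the 40 tested. P4ha2 lies at chr11:54100674-54100923 and Nid1 at chr13:13437352-13437601, both on the plus strand. Capitals mark the hypoxia response element cores ACGTG or GCGTG on either strand in P4ha2 and the GC box GGGCGG on either strand in Nid1.
P4ha2: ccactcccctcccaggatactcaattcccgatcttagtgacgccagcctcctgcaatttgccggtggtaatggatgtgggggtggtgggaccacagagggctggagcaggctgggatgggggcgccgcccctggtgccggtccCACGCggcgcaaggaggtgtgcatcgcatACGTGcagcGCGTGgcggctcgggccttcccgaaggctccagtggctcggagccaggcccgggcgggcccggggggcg
Nid1: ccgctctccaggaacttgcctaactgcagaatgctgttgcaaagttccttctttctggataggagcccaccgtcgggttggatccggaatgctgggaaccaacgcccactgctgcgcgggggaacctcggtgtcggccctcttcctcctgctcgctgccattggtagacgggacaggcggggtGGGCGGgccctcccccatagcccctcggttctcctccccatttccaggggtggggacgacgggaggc
Among stretches of that length, ACGTG was in 16.6% of all promoters, in 23.2% of those of all tested genes and in 24.1% (7 of 29) of those of tested matrix genes. For GCGTG the shares were 28.2%, 46.0% and 34.5%, and for the GC box 32.7%, 58.2% and 65.5%. P4ha2 had 1 ACGTG and 2 GCGTG, and Nid1 had neither. TNAAGTG, bound by Nkx2-5, was in 10.1%, 7.78% and 10.3% and in neither sequence shown. Such a match is a description of letters, and binding was not measured.

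Receptors that cells use to hold the matrix had no call. Of 26 listed genes 18 had a probe set and 11 were tested, 7 (63.6%) with a positive difference between mutant and wild type. The share over all tested genes was 45.5%. Integrin beta 1, Itgb1, the common subunit of receptors for collagen, laminin and fibronectin, read 8449, 7829 and 8691 in wild type, 6581, 7312 and 7393 in heterozygotes and 12621, 11072 and 10502 in mutants. The 3 groups did not overlap, with a log2 difference of 0.45 from wild type (limma adjusted p = 0.276) and 0.68 from heterozygotes (limma adjusted p = 0.0568). Of 44 other matrix genes 26 had a probe set and 14 were tested, 11 (78.6%) with a positive difference and none past the threshold. Postn, periostin, of valve cushions and other mesenchyme, read 989, 130.4 and 447 in wild type, 511, 1164 and 483 in heterozygotes and 3360.3, 1509 and 1208 in mutants. Each genotype was highest in its replicate with high Afp, and no mutant overlapped another group (log2 1.50, SE 0.452, limma adjusted p = 0.206). On type b 2 of 3 wild type and 2 of 3 heterozygous arrays of Postn lay under the floor, so the size depends on it, with 0.81 when the floor was doubled. With high Afp as a block the limma adjusted p was 0.0179, and with the resembling arrays as a block the difference was 0.89 (0.738). Without mutant 2 it was 1.06. Ccn2, a matricellular growth factor, read 502, 634 and 582 in wild type, 472, 574 and 398 in heterozygotes and 1353, 1024 and 705 in mutants (log2 0.80, limma adjusted p = 0.283). Ntn1 was 1 of 3 with a negative difference. It read 3162, 2568.5 and 2341.5 in wild type, 2631, 2662 and 2231 in heterozygotes and 2016, 2244 and 1542 in mutants. All mutant arrays lay below wild type (log2 -0.48, SE 0.201, limma adjusted p = 0.393) and overlapped the heterozygotes.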

How the data were processed

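RNA was hybridised to 18 oligonucleotide arrays, 9 of each type, and the authors deposited 1 linear intensity per probe set and array, background-subtracted, so that some values lie below 0. The software and scaling behind these intensities are not given in the sources consulted. Of the probe sets, 7542 had 1 gene symbol in the platform annotation, 224 had several and 5291 had none, and only the first kind was named.

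The noise SD of each array type was estimated from its negative values as 1.4826 times their median size. The floor was 2 times that SD, 375.1 for type a and 523.1 for type b. Values under it were set to it before log2. Probe sets above the floor on at least 3 of 9 arrays were tested in limma 3.58.1 (R 4.3.3), by two-sided moderated tests from lmFit and eBayes in which the variance prior followed intensity, on all 3 genotypes, with Benjamini-Hochberg adjustment over both array types together and a threshold of 0.05. A gene was represented by its brightest tested probe set. The procedure was run on simulated data with independent arrays, in which only probe sets well over the floor were changed. That run does not cover genes near the floor or arrays that resemble each other. No member lacked a value on any array.

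Matrix genes named with values were those past the threshold, the 10 of smallest p in mutant against wild type, the 5 of smallest p in each other comparison, and a list of main members of each class. Others were counted or named. The matrix genes and the other lists were chosen with earlier results of these data known. The labels do not say whether arrays of a group came from separate embryos, so p-values reflect only how far these samples differ among themselves, and that spread may be technical. Precision is limited by the 3 arrays per group. The only replicate number shared by genotypes, 8 in a heterozygote and a mutant on type a, was not used to pair arrays. Alternatives were quantile normalization, other floors and filters, no trend, only the genotypes compared, leaving out each replicate and, chosen after seeing the data, blocks for resembling arrays and for high Afp.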

Additional observations from a re-analysis of the deposited data

How the results depend on the processing

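The count of matrix probe sets changed between homozygous mutant and heterozygote, 1 as reported, was 2 with quantile normalization, when 6 arrays had to exceed the floor and without the intensity trend. It was 0 with the resembling arrays as a block, and 0 to 1 when single replicates were left out. The basement membrane median between mutant and wild type, 0.26, was 0.38 with the floor doubled and 0.053 without a filter, and 0.10 to 0.30 across the leave-outs, lowest without mutant 8a/9b. Against heterozygotes it was 0.22 with the floor halved and 0.30 with it doubled, and between heterozygote and wild type it ranged from -0.075 to 0.18 across the leave-outs. The interstitial median was 0 without a filter in both mutant comparisons, and -0.019 against wild type and -0.045 against heterozygotes with the resembling arrays as a block. Without the filter more dim genes at the floor entered each median, and the cause of the other shifts was not tested. The calls of P4ha1 and P4ha2 between mutant and wild type were also lost when only the genotypes compared were fitted (limma adjusted p = 0.0687 and 0.0691), and that of P4ha1 without a filter (0.0908). Over all probe sets, the 48 calls between mutant and wild type became 7 with only the genotypes compared, 8 with the block and 14 without wild type 5. The 80 calls between mutant and heterozygote became 0 with the block. Over 33 named genes the sign against wild type changed in 32 of 583 alternatives for mutants and in 49 of 583 for heterozygotes. No paired analysis was possible because the genotypes share at most 1 replicate number on an array type.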
